A study of Mus musculus with 4 samples.

Results

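Guidance receptors and ligands are the cell-surface and secreted proteins by which cells repel, attract and sort one another. They were taken here as the Eph receptors, ephrins, semaphorins of classes 3 to 7, plexins, neuropilins, Robos, Slits, Unc5 receptors and netrins. A gene entered by its symbol alone: every probe set whose only gene symbol in the platform annotation belonged to one of these families was a member. That gave 148 probe sets of 67 genes, out of 45037 non-control probe sets and 18193 genes with a symbol of their own. Of the 148, 62 probe sets of 41 genes reached a mean intensity of 42 over the 4 arrays and were tested, among 22884 tested probe sets in all.

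The RNA came from NIH/3T3 cells, a line of mouse embryo fibroblasts with no genetic change named in the labels, kept without serum on a porous filter that carried fibronectin on its underside. All samples shared this stimulus, with 1 h for protrusions to grow through the pores, and fixation in 0.3% formaldehyde for 10 min. There were 2 pseudopodia arrays (RNA from below the filter) and 2 cell body arrays (RNA from above it). No unstimulated cells and no RNA of whole cells were analysed here, and the labels do not tie the replicates to separate cultures. The p-values therefore reflect the spread among these arrays alone, and that spread may be technical.

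Eph receptors are receptor tyrosine kinases that bind membrane-anchored ephrins on a neighbouring cell, so that both partners signal at the contact. Semaphorins signal through plexins, with neuropilins as co-receptors for most secreted class 3 members. Slits act through Robos, and netrins through Unc5 receptors and through Dcc and its relative neogenin. These systems are best known from growing axons, and in fibroblasts Eph and plexin signalling is known to reshape actin and integrin adhesion at the cell edge.

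The intensities are on a linear scale with a lowest value of exactly 20 on every array, a floor at which 30.5% to 34.8% of the non-control probe sets lay, so a value at the floor is only an upper bound. Log2 values are log2(intensity + 1), which understates the change of dim probe sets. A probe set was called when limma's test of pseudopodia against cell bodies gave an adjusted p under 0.05, Benjamini-Hochberg adjusted over all 22884 tested probe sets. Of 9 established protrusion RNAs, a list in part found on these samples, 8 were called higher in pseudopodia and none lower. Of 11 fibroblast markers 10 were above the filter, while Thy1 was at the floor on all arrays. Their summed intensity was 61935 to 62358 in pseudopodia and 81354 to 89621 in cell bodies, and Col1a1 and Pdgfrb were called lower. The 9 neuronal markers summed to 536 to 560 in pseudopodia and 496 to 557 in cell bodies. Of these, 2 were above the filter, Tubb3 at 249 to 309 and Rbfox3 at 65.1 to 95.1 over the arrays, while Snap25 and Nefm were at the floor on every array. Of 5 epithelial markers 4 were above the filter, with sums of 703 to 761 in pseudopodia and 799 to 1063 in cell bodies. The glial, endothelial and haematopoietic lists each had 1 marker above it.

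Messages of guidance genes were lower in pseudopodia than in cell bodies wherever a call was made. Of the 62 tested probe sets, 14 fell (22.6%) and 0 rose, and these 14 belonged to 11 genes: Ephb3, Ephb4, Efna1, Efnb1, Sema3f, Sema4c, Nrp2, Plxna1, Plxna2, Plxna3 and Plxnb2. Over all tested probe sets limma called 11.4%, with 7.26% lower and 4.11% higher in pseudopodia. At an unadjusted p under 0.05 there were 25 guidance probe sets (40.3%), against 29.4% of all tested probe sets. At 3 of the 14, of Efna1, Sema4c and Nrp2, the mean pseudopodia intensity was under 42. These passed the filter through the cell body arrays alone and had to differ. At the other 11 both compartment means reached 42. Of all 62 tested, 7 passed the filter in this way, the rest of them from Sema3b, Ntn5 and Slit2. Another 3, of Efnb2, Plxnc1 and Slit3, passed it through the pseudopodia arrays alone. The filter set the direction of all these, and the counts below include them. The median log2 difference of the 62 was -0.54, beside -0.0033 over all tested probe sets, and 47 lay below 0 and 15 above. Both pseudopodia arrays lay below both cell body arrays at 33 of 62 (53.2%), against 30.8% of all tested probe sets, and above them at 5 (8.06%), against 28.7%. Without overlap in either direction there were 38 (61.3%), near the 59.5% of all tested probe sets. The members thus differed in direction more than in how often the compartments separated, with probe sets of a direction set by the filter included. Losses of at least 2-fold numbered 16, called or not, and gains of that size 0. These counts include probe sets that passed the filter through the cell body arrays alone. The share of such sizes among all tested probe sets is not given here, so the counts were not read further.

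The arrays compare shares of RNA within a compartment, so a lower value can go with less of that RNA in pseudopodia or with more of other RNAs there, and fewer contributing cells and less RNA per cell cannot be told apart. With any 1 of the 4 arrays left out, limma called 0 probe sets in the whole table, with 23 to 31 guidance probe sets (37.1% to 50% of those tested) at an unadjusted p under 0.05, against 20.2% to 25.6% of all tested probe sets. The guidance median was then -0.67 to -0.37. Between the pseudopodia arrays, the second read higher than the first at 48 of 62 guidance probe sets, with a median log2 difference of 0.25, against 0.020 over all tested probe sets. Among the 14 called probe sets it read higher at 10. For the Actb control, the 3' signal over the 5' signal on the log2 scale was 0.56 and 0.65 in pseudopodia and 0.37 and 0.36 in cell bodies. The same measure was -0.075 and -0.066 against -0.095 and -0.098 for the Gapdh control, and 2.61 and 2.32 against 2.54 and 2.25 for the pyruvate carboxylase control. The part of these ratios in the differences was not tested.

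**Figure D1:**
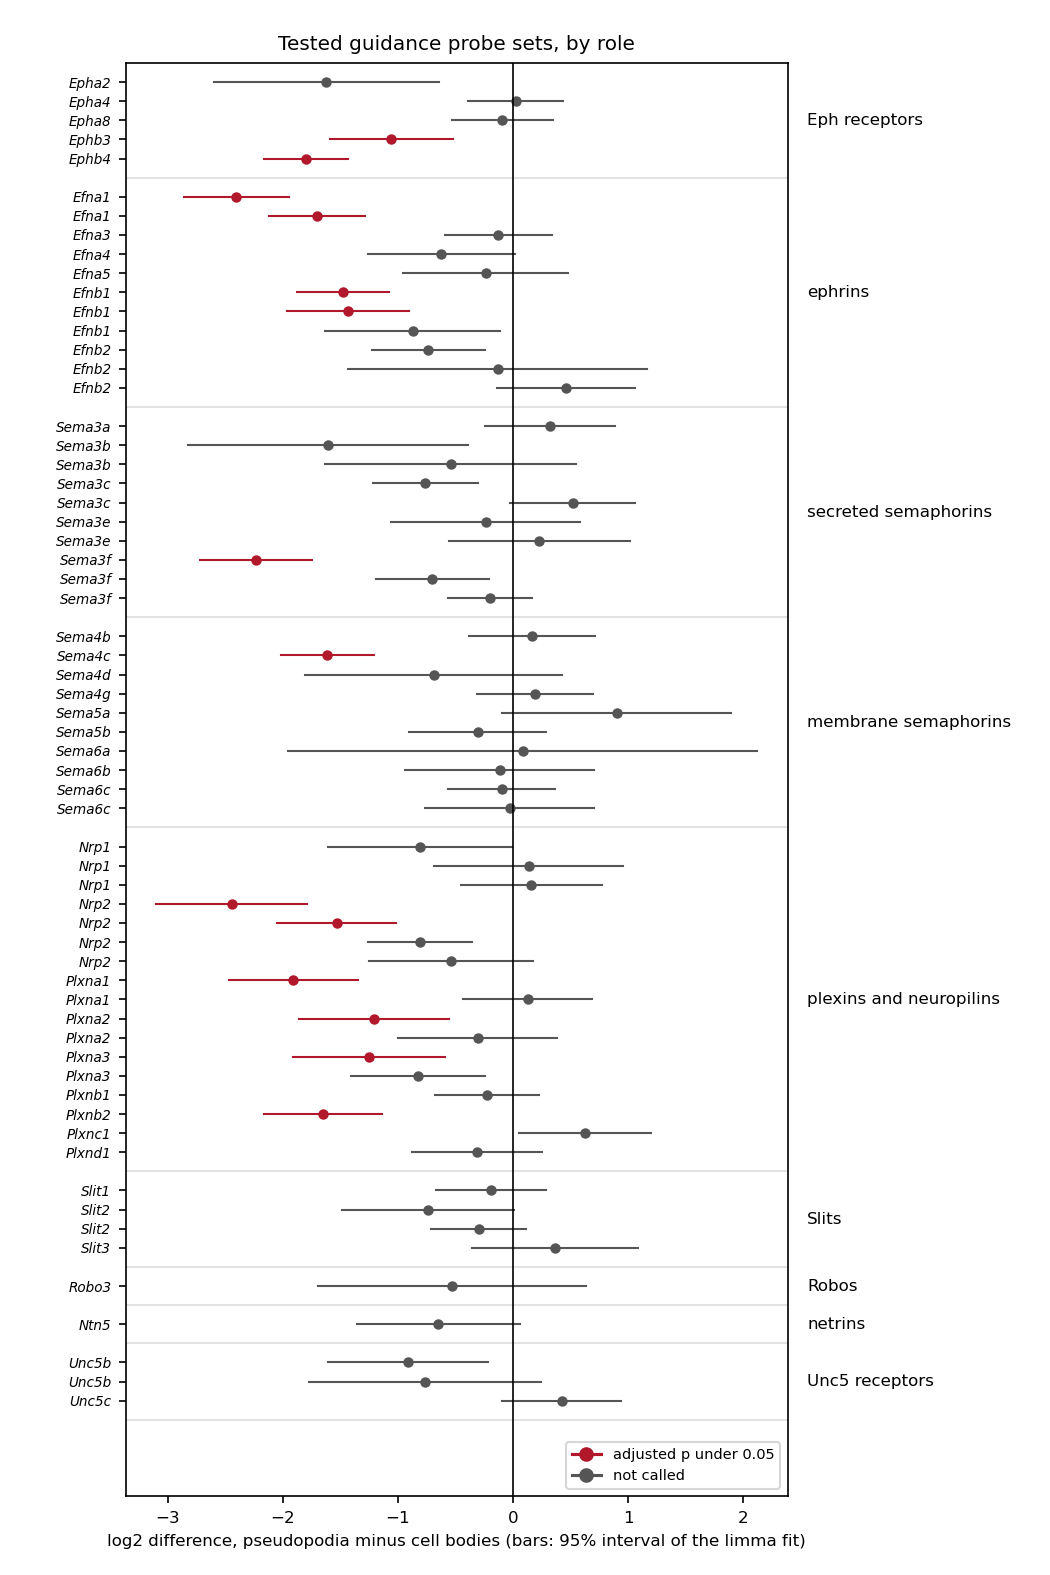
Log2 difference between pseudopodia and cell bodies (x axis) for each of the 62 tested guidance probe sets, grouped by role, with the 95% interval of the limma fit as a bar and 1 row per probe set. The 14 called probe sets, in red, all lie left of 0, from -2.45 to -1.06.

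Among Eph receptors, both tested EphB genes, Ephb3 and Ephb4, fell in pseudopodia. Ephb1 was under the filter, Ephb6 was at the floor on all arrays, and Ephb2 had no member probe set. Ephb4, the receptor that pairs with ephrin-B2, read 89.3 and 85.2 in pseudopodia and 303 and 310 in cell bodies. The arrays of each compartment lay close together and far from the other compartment. Ephb4 was 3.48-fold lower in pseudopodia (log2 difference -1.80, SE 0.14, limma adjusted p = 0.0257). Ephb3, a receptor for the B ephrins, read 305 and 360 in pseudopodia against 788 and 605 in cell bodies, with no overlap. It fell 2.08-fold (log2 difference -1.06, SE 0.20, limma adjusted p = 0.0428).

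Of the 9 EphA genes on the arrays, 3 were tested and none was called. Epha2, an EphA receptor of many cultured cells, read 87 and 145 in pseudopodia and 268 and 452 in cell bodies. Its arrays did not overlap, and its log2 difference of -1.62 was as large as those of called genes, but its spread was wider (95% interval -2.60 to -0.65, limma adjusted p = 0.0612). Under 5 of the 10 alternatives that kept all arrays Epha2 was called lower, at limma adjusted p from 0.00968 to 0.0445. Epha4 had a log2 difference of 0.02 (95% interval -0.39 to 0.44) and Epha8 of -0.09 (-0.53 to 0.34), each with overlapping arrays. A dimmer probe set of Epha4, under the filter, was at the floor on both pseudopodia arrays and read 58.4 and 49.2 in cell bodies, at least 2.68-fold higher there. The probe sets of Epha4 thus differed from each other.

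Ephrins, the ligands of the Eph receptors, showed the same direction at 10 of 11 tested probe sets, and 4 of the 11 fell (36.4%). Of all tested probe sets on the arrays, 7.26% were called lower. The filter set the direction of a called probe set of Efna1 and of the Efnb2 probe set above 0. Efna1, a lipid-anchored ligand of EphA2, had 2 probe sets, and both were called. The one with the higher intensity read 157 and 185 in pseudopodia and 571 and 542 in cell bodies, 3.25-fold lower in pseudopodia (log2 difference -1.70, SE 0.16, limma adjusted p = 0.0257). The other read 43.7 and 37.1 against 235 and 200, 5.29-fold lower (log2 difference -2.40, SE 0.17, limma adjusted p = 0.0257). With a pseudopodia mean of 40.4 it passed the filter through the cell body arrays alone and had to read lower. Its pseudopodia values lay not far above the floor, so its size is uncertain too.

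Efnb1, a transmembrane ephrin that also signals into its own cell, fell at 2 of 3 tested probe sets. They read 107 and 117 against 328 and 296 (log2 difference -1.48, SE 0.15, limma adjusted p = 0.0257), and 77.7 and 98.8 against 264 and 215 (log2 difference -1.43, SE 0.20, limma adjusted p = 0.0286). The dimmest read 36.6 and 59.7 in pseudopodia and 97.6 and 76.6 in cell bodies, also without overlap, at -0.87 (limma adjusted p = 0.129). All probe sets of Efnb1 were therefore lower in pseudopodia on every array, whether called or not.

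Efnb2, the other tested transmembrane ephrin, had log2 differences of -0.74, -0.13 and 0.46 at its tested probe sets, none called. At the middle one the pseudopodia arrays read 73.7 and 202, on either side of the cell body arrays at 129 and 139. Efna5 had the highest mean intensity of the tested ephrin probe sets. It read 318 and 511 in pseudopodia and 443 and 510 in cell bodies, with overlap (log2 difference -0.24, 95% interval -0.95 to 0.47). The lipid-anchored Efna3 and Efna4 had differences of -0.13 and -0.62, neither of them called.

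Of the semaphorins, 1 secreted and 1 membrane-bound gene fell in pseudopodia. Sema4c, a transmembrane ligand of plexin-B2, read 34.6 and 34.6 in pseudopodia and 116 and 100.2 in cell bodies. Its log2 difference was -1.61 (SE 0.15, limma adjusted p = 0.0257). This rests on 1 probe set that passed the filter through the cell body arrays alone, so it had to read lower. With pseudopodia values near the floor, the size for Sema4c is uncertain too. Its receptor gene Plxnb2 read 825 and 1106 in pseudopodia against 3011 and 3001 in cell bodies, 3.15-fold lower (log2 difference -1.65, SE 0.20, limma adjusted p = 0.0257). The 95% intervals were -2.02 to -1.21 for the ligand and -2.17 to -1.14 for the receptor. The filter set the direction of Sema4c, so the overlap of these intervals was not read.

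Sema3f, a secreted ligand of neuropilin-2, differed in size among its probe sets. One read 107 and 95.6 in pseudopodia and 539 and 426 in cell bodies, 4.69-fold lower (log2 difference -2.23, SE 0.19, limma adjusted p = 0.0257). The probe set with the highest intensity, of a kind (suffix _x_at) that can match other transcripts, read 791 and 805 against 895 and 941, without overlap but with a difference of only -0.20 (95% interval -0.57 to 0.17). The last had -0.70 (limma adjusted p = 0.0842). All of them were below 0, and the log2 ratio of the first to the second was -2.87 and -3.06 in pseudopodia against -0.73 and -1.14 in cell bodies.

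The other secreted semaphorins were not called. Sema3b, like Sema3f a ligand that neuropilins bind, read 44.1 and 33.3 in pseudopodia and 186 and 75.9 in cell bodies at its brighter probe set (log2 difference -1.61, SE 0.46, limma adjusted p = 0.0977). The cell body arrays differed widely there. The probe set passed the filter through these arrays alone, with a pseudopodia mean of 38.7, so it had to read lower in pseudopodia. Sema3a, the classical repellent of sensory axons, had a difference of 0.32 (95% interval -0.25 to 0.88). Sema3c read 282 and 366 in pseudopodia and 248 and 203 in cell bodies at one probe set and 50.1 and 51.5 against 97.1 and 77.7 at the other, at 0.52 and -0.76, opposite in sign and both without overlap. Sema3e was at -0.24 and 0.23.

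Among membrane semaphorins other than Sema4c, the log2 differences ran from -0.69 for Sema4d to 0.90 for Sema5a, and none was called. Sema5a, a transmembrane semaphorin with thrombospondin repeats, gave the highest difference of all 62 probe sets. It read 195 and 408 in pseudopodia and 143 and 159 in cell bodies, without overlap, with a 95% interval of -0.09 to 1.90 (limma adjusted p = 0.203). Another probe set of Sema5a, under the filter, was at the floor on both pseudopodia arrays and read 59.0 and 43.9 in cell bodies. Sema6c, which had the highest mean intensity of the group, read 246 and 233 against 288 and 229 (log2 difference -0.10, 95% interval -0.56 to 0.37). Sema4b, Sema4g, Sema5b, Sema6a and Sema6b lay between -0.31 and 0.19. The level of Sema6a on the pseudopodia arrays, 20.2 and 98.9, spanned both its cell body values.

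**Figure D2:**
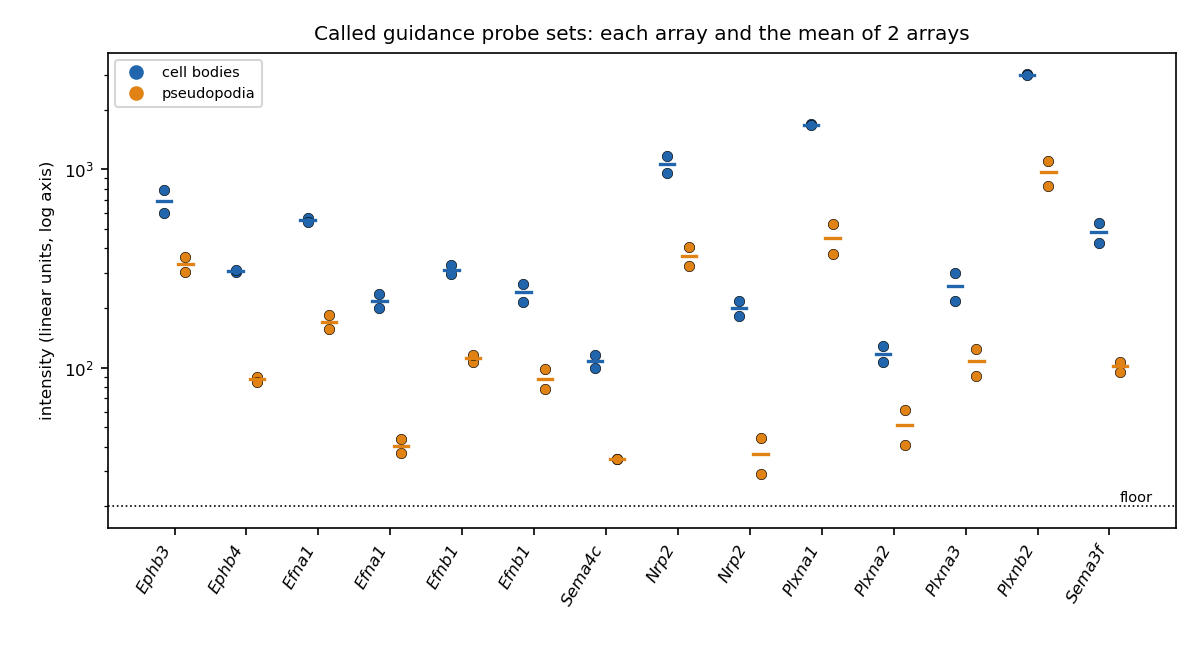
Intensity on each array (y axis, log scale) of the 14 called guidance probe sets, with cell bodies in blue, pseudopodia in orange, 1 point per array and a short line at the mean of 2 arrays. Every pseudopodia point lies under both cell body points of its probe set, and the dotted line marks the floor of 20.

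Plexins and neuropilins, the semaphorin receptors, held 6 of the 14 called probe sets, of 5 genes. That was 6 of their 17 tested probe sets (35.3%), beside 22.6% of all 62. Of all tested probe sets on the arrays, 7.26% were called lower. Among the 6 is a probe set of Nrp2 whose direction the filter set. Plxna1, which transmits class 3 signals together with a neuropilin, read 375 and 529 in pseudopodia and 1684 and 1668 in cell bodies at its brighter probe set. That was 3.76-fold lower in pseudopodia (log2 difference -1.91, SE 0.21, limma adjusted p = 0.0257). Its dimmer probe set read 93.3 and 66.8 against 76 and 68.8, with overlap and a difference of 0.13 (95% interval -0.44 to 0.69). The log2 ratio of the brighter to the dimmer was 1.99 and 2.97 in pseudopodia and 4.45 and 4.58 in cell bodies.

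The closely related Plxna3 fell at 1 of 2 tested probe sets, with 91.2 and 124 in pseudopodia and 299 and 217 in cell bodies (log2 difference -1.25, SE 0.25, limma adjusted p = 0.0475). The other was at -0.83 (limma adjusted p = 0.0853), also without overlap. Plxna2 fell at its dimmer probe set, with 41.0 and 61.3 against 129 and 107 (log2 difference -1.21, SE 0.25, limma adjusted p = 0.0496), while its brighter one had -0.31 (limma adjusted p = 0.506) with overlapping arrays. Both calls lie close to the threshold, as does that of Ephb3.

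The plexins of other classes were not called apart from Plxnb2. Plxnb1, a receptor for Sema4d, had a difference of -0.23 and Plxnd1, which can bind Sema3e without a neuropilin, of -0.32. Plxnc1, a receptor for Sema7a, read 49.9 and 57.0 in pseudopodia and 40.5 and 28.8 in cell bodies, at 0.63 (95% interval 0.05 to 1.20, limma adjusted p = 0.144). With means of 53.5 in pseudopodia and 34.7 in cell bodies it passed the filter through the pseudopodia arrays alone and had to read higher there. Its place among the receptors was therefore not read. Its values lay near the floor, and 5 further probe sets of Plxnc1 lay under the filter.

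Nrp2, the co-receptor that binds Sema3f, was below 0 at each of 4 tested probe sets and fell at 2. One called probe set read 326 and 408 in pseudopodia and 1164 and 959 in cell bodies (log2 difference -1.53, SE 0.20, limma adjusted p = 0.0270). The other read 29.2 and 44.1 against 183 and 218, with a log2 difference of -2.45 (SE 0.25, limma adjusted p = 0.0257). Its pseudopodia values lay near the floor and it passed the filter through the cell body arrays alone, so its size is uncertain and its place among the 62 was not read. The remaining probe sets had -0.81 (limma adjusted p = 0.0526, called under 4 of those 10 alternatives) and -0.54 (limma adjusted p = 0.270), neither with overlapping arrays. Nrp1, a co-receptor for Sema3a and for vascular endothelial growth factor, was not called: its probe sets stood at -0.81, 0.13 and 0.16. At the first of these Nrp1 read 126 and 216 in pseudopodia and 263 and 321 in cell bodies, and at the others the compartments overlapped.

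Slits, Robos, netrins and Unc5 receptors had 9 tested probe sets in all and none was called. Slit2, a secreted ligand of Robo receptors, read 188 and 269 in pseudopodia and 310 and 456 in cell bodies (log2 difference -0.74, 95% interval -1.49 to 0.01) and had -0.30 at its other probe set. Slit1 and Slit3 had differences of -0.19 and 0.36. Robo3 was the tested Robo, at 52.2 and 57.9 against 125 and 51.2, with overlap. Unc5b, a netrin receptor, read 232 and 353 in pseudopodia and 608 and 482 in cell bodies (log2 difference -0.92, SE 0.26, limma adjusted p = 0.0986), and its other probe set had -0.77. Unc5c had 0.42 (95% interval -0.10 to 0.94). Ntn5, the tested netrin, was at -0.65 with 35.1 and 36.7 against 44.3 and 72.8, and it passed the filter through the cell body arrays alone.

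**Figure D3:**
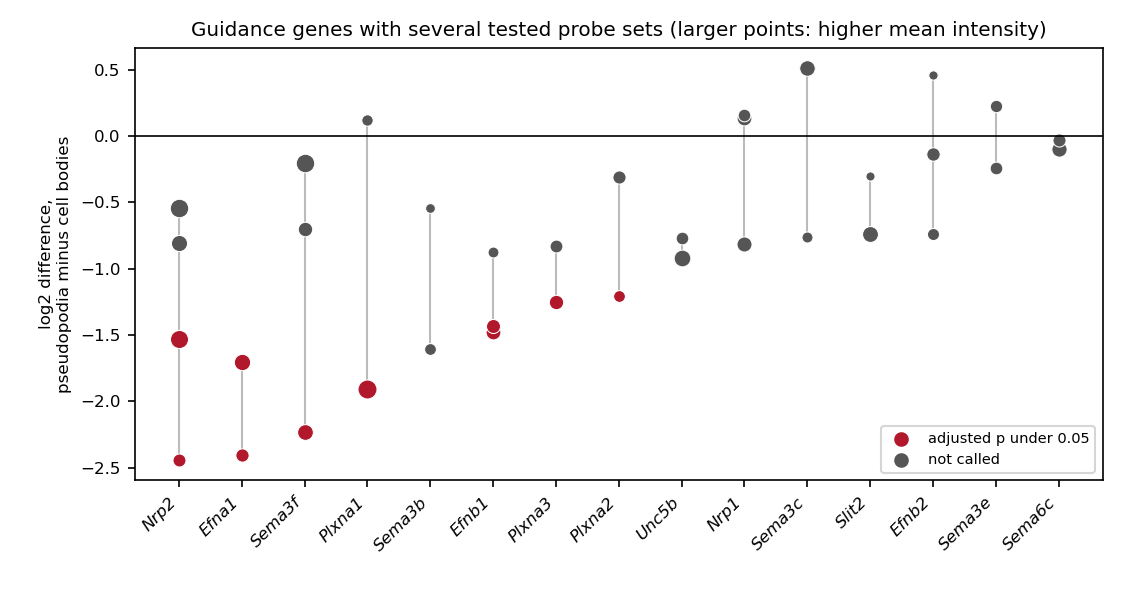
Log2 difference between pseudopodia and cell bodies (y axis) for the 15 guidance genes with several tested probe sets, 1 point per probe set, red where called, with larger points at higher mean intensity. At 10 genes all points share a sign, and the widest spread, 2.04, is at Plxna1. The filter set the sign of points of Efna1, Efnb2, Nrp2, Sema3b and Slit2.

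Probe sets of a gene did not always move alike. Of 15 genes with several tested probe sets, 10 had differences of 1 sign and 5 (Efnb2, Nrp1, Plxna1, Sema3c and Sema3e) had both signs. The filter set the sign of both Sema3b probe sets and of a probe set each of Efna1, Nrp2 and Slit2. It also set that of the Efnb2 probe set above 0. Agreement or disagreement in sign at these genes was therefore not read. The gap between the highest and lowest difference of a gene was largest at Plxna1 (2.04) and Sema3f (2.03), followed by Nrp2 (1.91), where it rests on the probe set near the floor. Where the probe set with the highest mean intensity stood for its gene and 1 fit was made over 11426 genes, 8 of 41 guidance genes fell (19.5%), beside 13.9% of all genes called in that fit. The median was then -0.31. The missing genes were Nrp2, Plxna2 and Sema3f, whose calls came from a probe set other than that one.

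Of the 148 member probe sets, 32 were at the floor on all arrays and 54 were above it on some array but under the filter. The 26 genes without a tested probe set were Epha10, Ephb6, Ntn4, Plxnb3, Robo2 and Sema3d, all at the floor throughout, and 20 others with some signal: Efna2, Efnb3, Epha1, Epha3, Epha5, Epha6, Epha7, Ephb1, Ntn1, Ntn3, Plxna4, Robo1, Robo4, Sema3g, Sema4a, Sema4f, Sema6d, Sema7a, Unc5a and Unc5d. Just under the filter lay Sema4f at a mean of 41.7 and Efnb3 at 41.5, and just over it Slit3 at 43.8 and Plxnc1 at 44.1. Among the untested, 14 probe sets were at the floor on both pseudopodia arrays alone and 13 on both cell body arrays alone. The bounds reached 2-fold at 3 of them, Epha4 and Sema5a as given and Ntn1, the founding netrin, at 39.0 and 41.3 in cell bodies, at least 2.01-fold higher than in pseudopodia.

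By side of the signal, receptors had 8 of 26 tested probe sets called lower (30.8%), with a median of -0.79, and ligands 6 of 36 (16.7%), with a median of -0.27. The difference between these shares was not tested. Probe sets of 1 gene count more than once in both shares. Over all tested probe sets, 7.26% were called lower and the median was -0.0033. The filter set the direction of called probe sets of Efna1 and Sema4c among the ligands and of Nrp2 among the receptors.

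The other genes of these pathways came from a list of 75 genes with probe sets on the arrays, none of them a member. It held co-receptors, sheddases and intracellular partners, and 142 of its 220 probe sets were tested. Of these 8 rose and 10 fell (12.7%), at a median of -0.036, close to the 11.4% and -0.0033 of all tested probe sets. The directions split by where the protein sits, a division of the list made after its values were seen. All 10 that fell encode cell-surface proteins, out of 21 tested surface probe sets of 9 genes (47.6%). They came from 4 genes, and 7.26% of all tested probe sets were called lower. A called probe set of Rgmb passed the filter through the cell body arrays alone and had to read lower, and the surface count includes it. All 8 that rose encode cytoplasmic proteins, out of 121 probe sets of 55 genes (6.61%), against 4.11% of all tested probe sets called higher. Most of the tested list is cytoplasmic, so finding every rise there says little by itself. Surface partners had a median of -0.92 and cytoplasmic partners of 0.037. Both medians include probe sets with a direction set by the filter. The split was not complete under 7 of the 10 alternatives that kept all arrays: 1 cytoplasmic probe set also fell under 6 of them, and with a variance trend 3 did and 1 surface probe set rose.

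The surface partners that fell were Neo1, Rgmb, Dag1 and Adam17. Neo1, neogenin, a receptor for netrins and repulsive guidance molecules, read 294 and 451 in pseudopodia and 831 and 926 in cell bodies (log2 difference -1.27, SE 0.25, limma adjusted p = 0.0462), and fell at its other probe set as well (-1.14). Rgmb, a lipid-anchored ligand of neogenin, fell at 4 of 5 tested probe sets, by 1.05 to 1.50 on the log2 scale, with 169 and 132 against 437 and 410 at the one with the highest intensity. A called Rgmb probe set with means of 34.1 in pseudopodia and 88.4 in cell bodies passed the filter through the cell body arrays alone. It had to read lower, and so did the uncalled one, with means of 41.5 and 42.9. Dag1, dystroglycan, a matrix receptor that also binds Slits, fell at 3 of 4, from -1.63 to -1.15, with 1590 and 2006 in pseudopodia against 4023 and 3882 at the one with the highest intensity. The sheddase Adam17 fell at 1 of 2 (-1.07, SE 0.15), while Adam10, which cleaves ephrins, had -0.13 and 0.32 and was not called. Flrt2, a ligand of Unc5 receptors, was not called either, with values from -0.46 to 0.73.

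The cytoplasmic partners that rose included Rap1a, Rasa1, Sos1 and Enah. Rap1a, a small GTPase of the family on which plexin GAP domains act, rose at both tested probe sets, with 1502 and 1421 against 764 and 857 at the brighter (log2 difference 0.85, SE 0.15). Rasa1, the Ras GTPase-activating protein that binds activated EphB receptors, rose at both tested probe sets (1.85 and 0.89), with 304 and 470 against 112 and 96.3 at the brighter. Sos1, an exchange factor for Ras and Rac that Robo signalling recruits, rose at 1 probe set by 1.06 and had -0.26 at the other. Enah, an actin filament elongator downstream of Robo, rose at 1 of 4, by 0.96.

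**Figure D4:**
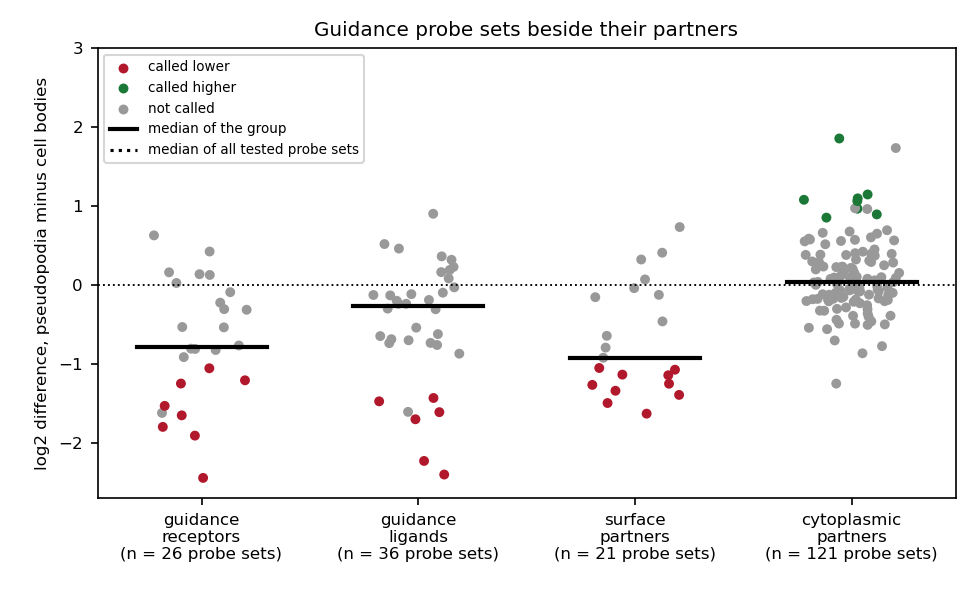
Log2 difference between pseudopodia and cell bodies (y axis) of tested probe sets of guidance receptors (26), guidance ligands (36), surface partners (21) and cytoplasmic partners (121), with a thick line at each median and a dotted line at the median of all tested probe sets. Red points (called lower) occur in the first 3 columns and green points (called higher) in the last.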

How the data were processed

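The authors deposited 1 table with a linear intensity for each probe set and array; the chip is Mouse430_2 per the file headers of the array records. The sources used here do not say how probes were summarised and arrays scaled. Array medians lay between 40.5 and 45.6, and no further scaling was applied. The array records list 1 chip lot and 1 scanner for all 4 arrays, so no batch could be fitted. The 64 control probe sets were left out. Gene symbols came from the platform annotation; gene IDs of all 67 member genes matched a RefSeq table of assembly GRCm38.p6. The compartments were compared on log2(intensity + 1) with limma 3.58.1 (R 4.3.3; functions lmFit, eBayes, two-sided, no covariate, 2 residual and 2.64 prior degrees of freedom) over the 22884 probe sets with mean intensity of at least 42. A permutation of 2 against 2 arrays cannot give p under 0.333, so none was run. The fit was tested on simulated data. A bound ("at least") is the geometric mean of the measured compartment over the floor. Array values and test results are given for called guidance probe sets and for the guidance probe set of each role with the highest mean intensity. Pathway genes with called probe sets are given by log2 difference, some with array values; Adam10 and Flrt2 were named after their values were seen. Members and lists were chosen with earlier results of these data known. The planned comparison of protein sequences was not made. The number of arrays limits the precision. The values of 1 partner gene are not reported here.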

Additional observations from a re-analysis of the deposited data

How the results depend on the processing

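The 14 called guidance probe sets had log2 differences from -2.74 to -0.87 over the alternatives in which they were fitted. The compartments did not overlap at any of the 14, so leaving out 1 array could not turn their direction. The calls themselves depend on the number of arrays and on the filter. With any 1 array left out, limma called 0 guidance probe sets, 0 of the pathway list and 0 of all tested (0 higher and 0 lower), and the guidance median ran from -0.6732 to -0.3725; these fits hold fewer samples, and the lone array is assumed to vary like the other compartment. Without a filter, 33 probe sets were called higher and 40 lower in the whole table and 0 among guidance genes and the pathway list, with 25 of 148 guidance probe sets (16.9%) at an unadjusted p under 0.05, beside 16.7% of all, so the guidance genes did not stand out by that count; the guidance median was -0.0221 over all 148, of which 32 are at the floor throughout. With the brightest probe set of each gene, fewer features were tested and 8 guidance genes fell, at a median of -0.3078, while the pathway list had 5 higher and 5 lower and 947 of all genes were lower. With a variance trend 1790 probe sets were higher and 2691 lower in the whole table, and with a mean intensity of at least 100 there were 1413 higher; 18 and 16 guidance probe sets fell there (29% and 41% of those tested, beside 19.6% and 21.1% of all), and the cause was not tested. Under the remaining alternatives 10 to 16 guidance probe sets fell and 0 rose, and 0 guidance probe sets rose under any. Calls were gained by 8 guidance probe sets, all lower: Epha2 under 5 alternatives, Nrp2 under 4, Sema3b and Sema3c under 2 each, and Plxna3, Sema3f, Slit2 and Unc5b under 1 each.

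With the replicate number as a block, 15 guidance probe sets fell, 11 of them shared with the fit without it, and the calls of Ephb3 (limma adjusted p = 0.0501), Plxna2 (0.0553) and Plxna3 (0.0569) were lost. Deviations of same-numbered samples from their group means correlated at 0.328 across probe sets, but no label ties the numbers to a shared culture, so the block is given here alone.

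Directions of uncalled probe sets near 0 changed more easily. Median centring turned a probe set of Sema6c to 0.0028. With 1 array left out, 19 uncalled probe sets changed sign, with ranges of -0.0894 to 0.1364 for Epha4, -0.2245 to 0.039 for Epha8, -0.2633 to 0.0061 for Efna3, -0.5812 to 0.1021 for Efna5 and -0.8535 to 0.5863 for Efnb2. Among semaphorins they were -1.1356 to 0.0514 for Sema3b, -0.164 to 0.6187 and -0.6667 to 0.1867 for Sema3e, -0.0685 to 0.3909 for Sema4b, -0.0076 to 0.3827 for Sema4g, -1.0365 to 1.1987 for Sema6a, -0.5304 to 0.2946 for Sema6b, and -0.2643 to 0.0658 and -0.3533 to 0.2897 for Sema6c. Among receptors they were -0.2792 to 0.5491 and -0.1266 to 0.4441 for Nrp1, -0.1127 to 0.3635 for Plxna1, -0.6331 to 0.0175 for Plxna2 and -1.1699 to 0.1018 for Robo3.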
